A study of Zea mays with 12 samples.

Results

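The effect of PCIB on nitrate-fed maize roots was described here as the difference between the nitrate plus PCIB column and the nitrate column of a table of expression values. All entries with at least 5 FPKM in either of these columns were taken, which gave 15447 of the 26451 entries in the table (58.4%). FPKM counts the sequenced fragments of a transcript relative to its length and to all fragments mapped. The roots were primary roots of seedlings of the inbred line B73. Seedlings germinated for 3 days and then spent 24 h in a nutrient medium with 1 mM nitrate, or with 1 mM nitrate and 10 µM PCIB, so that PCIB is the only labelled difference between these groups. For context, the table also holds roots kept without nitrogen (the N-deprived control) and N-deprived roots given 2 µM TIS108, an inhibitor of strigolactone synthesis. Every group had 3 biological replicates of 4 to 8 plants each, 12 samples in all, 6 of them in the groups compared. Each group is 1 value per entry in the table, so no difference below has an SD, a standard error or a p-value. A whole root was sampled, so a lower level per cell cannot be told apart from fewer cells of a type.

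Auxin sets where lateral roots are founded, how cells elongate and how the root tip is patterned. It acts by bringing TIR1/AFB receptors together with Aux/IAA repressors, which are then degraded, so that auxin response factors (ARFs) can activate their target genes. PCIB, p-chlorophenoxyisobutyric acid, is an antagonist of auxin action that is used to block such responses in roots. Nitrate supply alters root branching, and several plant microRNAs act on auxin receptors, ARFs and other regulators of root growth. The comparison asks how the transcriptome of a nitrate-fed root differs when auxin action is inhibited.

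Of the members 15196 were nuclear gene models. The others were 219 non-coding RNA genes of Ensembl's annotation (identifiers starting with ENSRNA), 15 loci of microRNAs, 16 entries of the mitochondrial genome and 1 of the plastid genome. Nuclear gene models carry an identifier without a gene name, so auxin-responsive or nitrate-assimilation genes could not be picked out, and the microRNA loci and organelle genes are the named features. Summed FPKM was 469344 with nitrate and 483955 with nitrate plus PCIB, and 447300 to 497447 over the 4 columns. The depth of the libraries is unknown. Of 7 plastid genes that mark green tissue, 4 were in the table, namely psbA, psaB, rbcL and petA. Their summed level was 6.73 FPKM with nitrate and 7.16 FPKM with nitrate plus PCIB, of which petA alone gave 5.17 and 5.03 FPKM. Plastid transcripts are poorly captured in poly(A) RNA, which weakens this check, and root-specific genes could not be looked up.

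With PCIB, many more transcripts stood 2-fold higher than 2-fold lower. Entries were counted as differing from 2-fold upward on the log2(FPKM + 1) scale, the pseudocount of 1 serving to damp differences between low values. By this limit 572 entries were higher with PCIB than with nitrate alone (3.7% of the members) and 133 were lower (0.861%). The imbalance grew with the size of the difference. At 4-fold or more there were 124 higher entries and 11 lower ones, at 8-fold or more 46 and 0, and at 16-fold or more 14 and 0. The counts of 0 hold for the pseudocount of 1. With a pseudocount of 0.1 the lower entry Zm00001d047907 was past 8-fold, at -3.68, and the counts by size were not retaken. The typical transcript did not share this direction, since 6553 members were above their nitrate level and 8894 below it, and the median log2 difference was -0.05. This small lean depended on the scaling of the columns. The median was -0.09 with columns rescaled to an equal sum and 0.001 with columns scaled by the median ratio. The central part of the distribution was narrow, with quartiles at -0.19 and 0.16. Its upper tail was long, the 99th percentile being 1.84 where the 1st was -0.92, and its SD was 0.49.

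**Figure D1:**
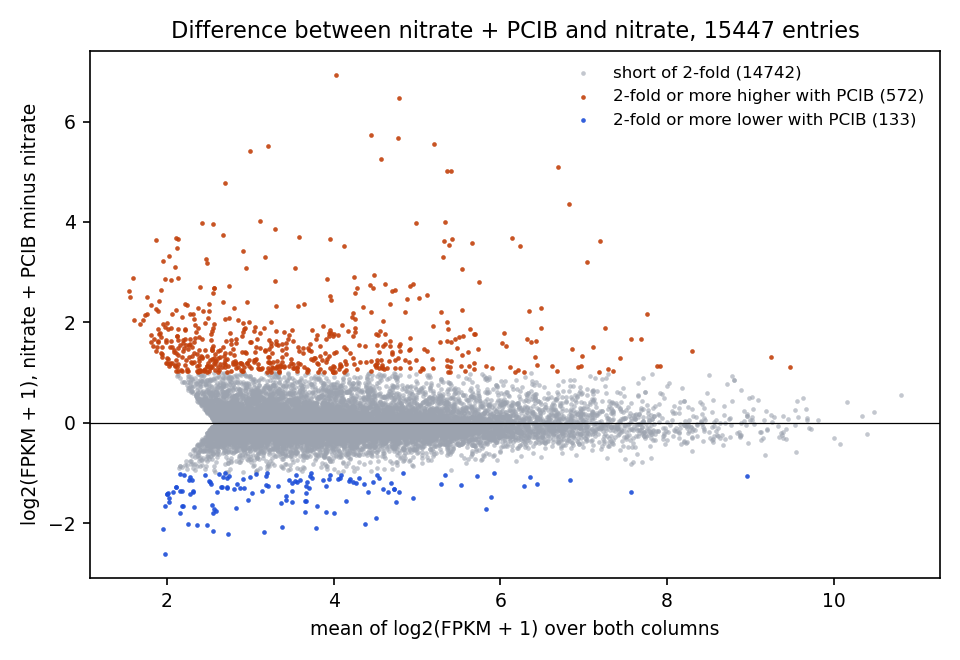
Difference in log2(FPKM + 1) between nitrate plus PCIB and nitrate (vertical axis) against the mean log2(FPKM + 1) of both columns (horizontal axis), 1 point for each of the 15447 entries. The 572 entries higher by 2-fold or more reach a log2 difference of 6.93, whereas the 133 lower ones reach -2.62.

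Entries were also sorted into bands by the larger of their nitrate and PCIB values, and higher entries exceeded lower ones in every band. The excess was widest in the top band, but a high PCIB value itself moves an entry into a higher band. At 100 FPKM or more with nitrate alone stood 12 of the higher and 7 of the lower entries, and with PCIB 59 and 2. Among 4717 entries whose higher value lay between 5 and 10 FPKM, 186 were higher with PCIB (3.94%) and 45 lower (0.954%). Among 320 entries at 200 FPKM or more, 7.50% were higher and 0.625% lower. The level at which an entry was admitted bears on these counts. Of the 572 higher entries 301 were under 5 FPKM with nitrate and were admitted through the PCIB column alone, and of the 133 lower entries 64 were admitted through the nitrate column alone. Such entries had to differ in that direction. Among the 13924 entries at 5 FPKM or more in both columns, 271 were higher (1.95%) and 69 lower (0.496%).

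In the band of log2 differences from 1 to 1.1 there were 85 higher and 24 lower entries, and just short of the limit, from 0.9 to 1, there were 101 and 32. Among the 583 entries that only just reached the minimum, with a higher value of 5 to 5.5 FPKM, the median log2 difference was -0.01, and 26 were 2-fold higher and 1 was 2-fold lower. Just outside it, at 4.5 to 5 FPKM, 588 entries had a median of 0.03, with 15 higher and 3 lower. Below the minimum lay 11004 entries, of which 165 were 2-fold higher and 40 were 2-fold lower on the same scale.

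The 2 widest differences belonged to transcripts that were nearly silent in all roots without PCIB. Zm00001d007285 was at 0.477 FPKM with nitrate alone and 180 FPKM with nitrate plus PCIB, a ratio of 377. Without nitrogen it was at 0.614 FPKM in the control and at 1.73 FPKM after TIS108. Zm00001d051251 was at 1.95 FPKM with nitrate alone and 259 FPKM with nitrate plus PCIB, a ratio of 133, and at 1.97 and 3.04 FPKM in the other columns. For both, the PCIB column stood apart from 3 columns that lay within a few FPKM of each other. Their log2(FPKM + 1) differences were 6.93 and 6.46, the only ones of 64-fold or more.

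Transcripts with the widest differences reached high levels. The 46 entries higher by 8-fold or more had a median of 2.16 FPKM with nitrate (quartiles 0.480 and 10.1) and 60.1 FPKM with nitrate plus PCIB (quartiles 22.2 and 178). In the N-deprived control and with TIS108 their medians were 4.91 and 4.58 FPKM. At 100 FPKM or more there were 0 of the 46 with nitrate and 22 with nitrate plus PCIB. Higher entries were chosen for a PCIB value above nitrate, so a gain in their summed FPKM was fixed by the choice. The counts and shares here give its size and are no separate result. Together the 46 held 0.0652% of all FPKM in the nitrate column and 1.24% in the PCIB column. The 572 higher entries held 1.52% and 5.30%, so that the gain of these entries, from 7130 to 25658 summed FPKM, was larger than the difference between the column sums.

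Over all 572 higher entries the median level with nitrate was lower than in the N-deprived control, and that with PCIB was above it. The medians were 8.97 FPKM in the control, 4.51 FPKM with nitrate, 6.59 FPKM with TIS108 and 15.3 FPKM with nitrate plus PCIB. Entries chosen for a low nitrate value against PCIB tend to be low with nitrate against any other column, since the comparisons share the nitrate column, so these levels are given side by side and are no separate result. For the 78 entries higher by 4-fold to under 8-fold the medians were 8.77 FPKM in the control, 2.48 FPKM with nitrate, 5.32 FPKM after TIS108 and 15.6 FPKM with nitrate plus PCIB. The 46 widest entries had medians of 4.91 FPKM in the control and 60.1 FPKM with PCIB. Both sets were cut by the size of the PCIB difference, so the cut itself favours a higher PCIB level in the wider set.

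**Figure D2:**
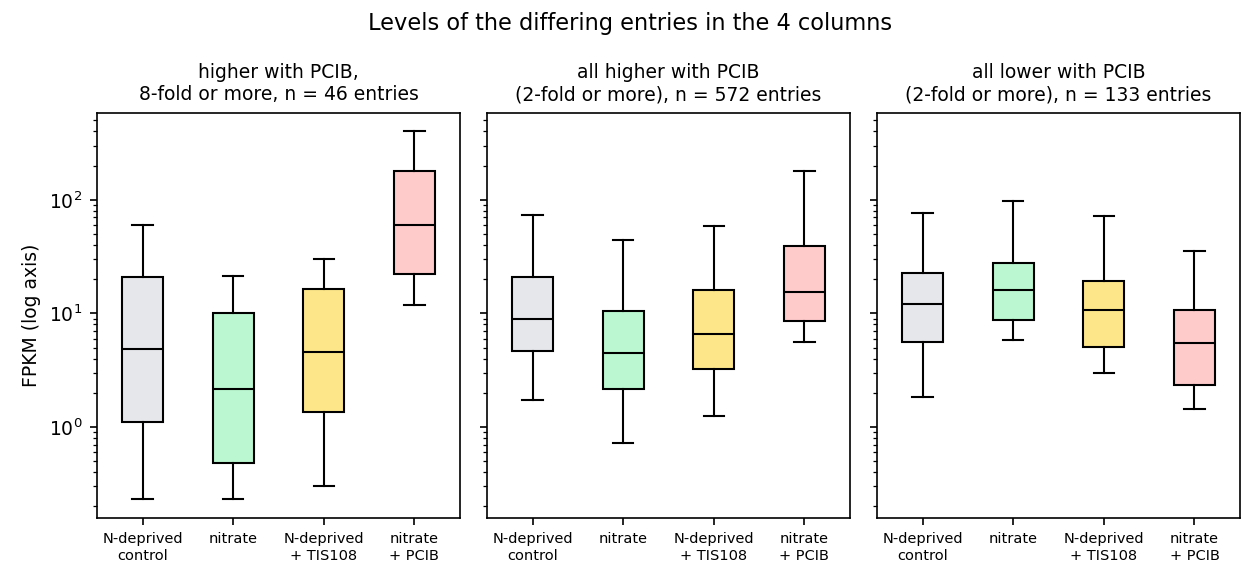
FPKM (log axis) in the 4 columns for the 46 entries higher with PCIB by 8-fold or more, for all 572 higher entries and for the 133 lower entries. Boxes show the quartiles and the median over entries and whiskers the 5th and 95th percentiles; the 46 widest entries have medians of 2.16 FPKM with nitrate and 60.1 FPKM with nitrate plus PCIB.

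The lower side was smaller in number and in size. Zm00001d047907 was at 8.75 FPKM with nitrate alone and 0.592 FPKM with nitrate plus PCIB, a ratio of nitrate to PCIB of 14.8. Without nitrogen it was at 1.37 FPKM (control) and 3.77 FPKM (TIS108), so that the nitrate column was the high one. Zm00001d007160 was at 13.3 FPKM with nitrate alone and 2.08 FPKM with nitrate plus PCIB, a ratio of 6.43, and here the control was highest at 17.5 FPKM, with 6.19 FPKM under TIS108. The 133 lower entries had medians of 16.2 FPKM with nitrate, 5.48 FPKM with nitrate plus PCIB, 12.2 FPKM without nitrogen and 10.7 FPKM after TIS108. Of the 133, 105 were nuclear gene models, 25 were ENSRNA entries and 3 were microRNA loci, each of which has a double of identical values among the 25. The lower entries held 0.880% of all FPKM with nitrate and 0.338% with nitrate plus PCIB.

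The pair of columns that shares nothing with this comparison, TIS108 against the N-deprived control, was then read for the same entries. Of the 572 entries higher with PCIB, 439 lay below their control level with TIS108 (76.7%), against 47.4% of all members, and the median log2 differences were -0.30 and 0.02. By the 2-fold limit 41 were lower with TIS108 and 0 higher, of 415 that reached 5 FPKM in the control or with TIS108 (9.88%). In the full table, 1.85% of the 15381 entries at that level were lower with TIS108 and 0.0195% were higher. Over the members that reached it, 210 of 14827 were lower (1.42%), and the 41 are 19.5% of those 210. In the share below the control the widest differences did not follow this. Among the 46 entries higher by 8-fold or more, 26 were below their control level with TIS108 (56.5%), and among the 14 at 16-fold or more 4 were (28.6%), with a median log2 difference of 0.11. By the 2-fold limit 3 of 25 that reached 5 FPKM among the 46 were lower with TIS108 (12%) and 0 higher. Among the 14 the limit was met by 0 of 8. Of the 133 entries lower with PCIB, 80 were below their control level with TIS108 (60.2%), at a median of -0.08. By the 2-fold limit 8 of the 112 that reached 5 FPKM were lower with TIS108 (7.14%) and 0 higher, so a share above the 1.42% of the members was found on both sides of the PCIB difference. Rescaling every column to an equal sum moved the median over all members from 0.02 to 0.16, and those of the higher and lower entries to -0.17 and 0.07. The share below the control was then 66.0% for the higher entries and 29.3% for all members.

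Among nuclear members next in number to an entry that differed, the share that differed in the same direction was above that of all nuclear members. Nuclear identifiers end in a serial number, and no genome position was used here. The nuclear members formed 5295 pairs whose numbers differ by 1. Counted from each higher entry, there were 393 such neighbours, and 17.8% of these were also higher, against 3.76% of all 15194 nuclear members with distinct values. This share rests on 35 pairs of which both were higher, each counted from both ends. At a difference of 2 the share was 7.65%, at 5 it was 5.68%, and at 51 to 100 it was 3.67%. The fall was not even, with 4.44% at 6 to 10 and 5.37% at 11 to 20. Around entries that met the limit in neither direction, 3.18% of the members next in number were higher. Counted from each lower entry there were 78 neighbours, of which 10.3% were lower, against 0.691% of all, but this rests on only 4 pairs. At differences of 2, 3 and 4 the share around lower entries was 0%, and at 21 to 50 it was 1.82%. No higher entry shared all 4 of its values with another entry. Whether neighbouring entries share reads was not tested.

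**Figure D3:**
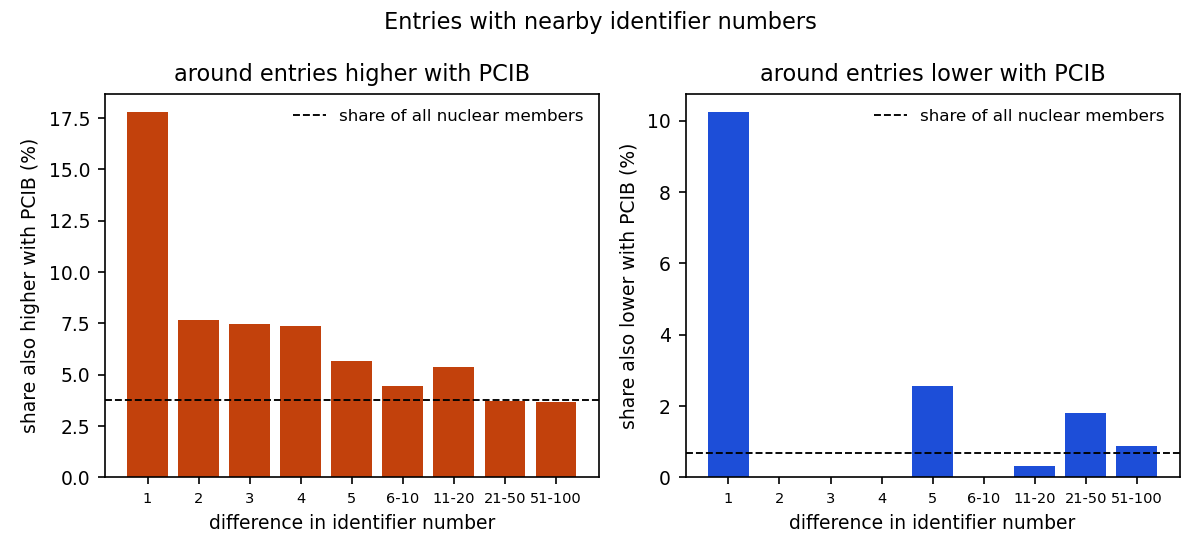
Share of nuclear members (%) that were higher with PCIB, by the difference between their identifier number and that of a higher entry (left), and the same for lower entries (right). The dashed lines give the shares over all nuclear members, 3.76% higher and 0.691% lower; the bar at a difference of 1 stands at 17.8% on the left and at 10.3% on the right, where it rests on 4 pairs. Pairs are counted from both ends.

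Among the microRNA loci, a named group, the few that met the limit were all lower with PCIB. MicroRNAs are cut from hairpin transcripts and direct the cleavage or repression of matching mRNAs, and the values here are reads over the loci in poly(A) RNA, not mature microRNAs. Of 25 loci 15 reached 5 FPKM in either column, of which 3 were 2-fold lower with PCIB and 0 higher, where 0.861% of all members were lower and 3.7% higher. The 204 ENSRNA members that do not double a microRNA locus leaned the same way, with 10.8% lower and 0.490% higher. The loci MIR408b and MIR167g were admitted through the nitrate column alone, so they had to lie below nitrate. Of the 3 only MIR171f reached 5 FPKM in both columns, so the count of 3 against 0 is no separate result. As a set the 25 loci were split, with 14 above and 11 below their nitrate level and a median log2 difference of 0.04, beside -0.02 over all entries with distinct values at any level. The 15 members alone had 7 above and 8 below, with a median of -0.36, beside -0.05 over all members. Their order, from the widest lower to the widest higher difference, is shown in the plot of the loci.

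**Figure D4:**
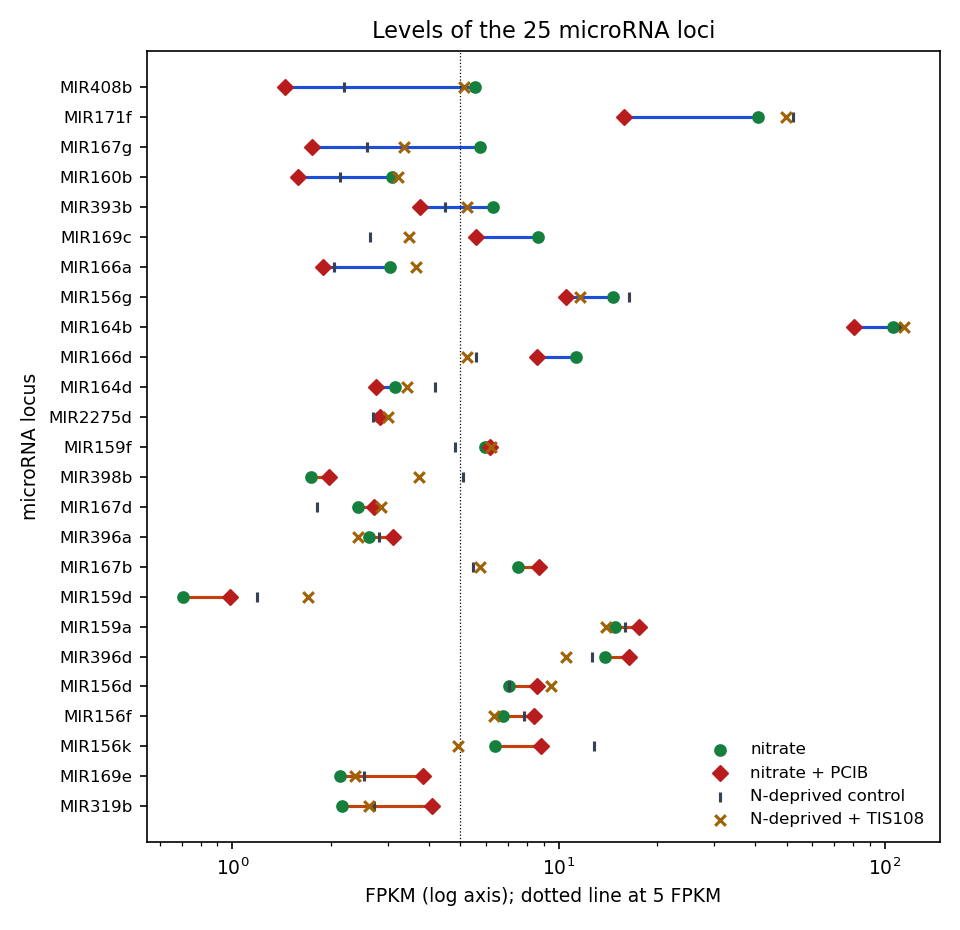
FPKM (log axis) of each of the 25 microRNA loci in the 4 columns, ordered by the log2(FPKM + 1) difference between nitrate plus PCIB and nitrate, with the lowest difference at the top. Lines join the nitrate and the PCIB value; MIR408b, MIR171f and MIR167g are lower with PCIB by 2-fold or more, and no locus is 2-fold higher.

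Loci linked to auxin response in other plants were among the lower ones. MIR167g, of a family that targets ARF genes, was at 2.60 FPKM in the control, 5.73 FPKM with nitrate, 3.36 FPKM with TIS108 and 1.75 FPKM with nitrate plus PCIB, a log2 difference from nitrate of -1.29. Its relatives did not follow it: MIR167b was at 7.50 FPKM with nitrate alone and 8.74 FPKM with PCIB, and MIR167d at 2.42 and 2.72 FPKM. MIR160b, of another family that targets ARF genes, was at 3.09 FPKM with nitrate alone and 1.59 FPKM with PCIB, and did not reach 5 FPKM in any column. MIR393b, of the family that targets the TIR1/AFB auxin receptors, was at 6.31 and 3.75 FPKM, a log2 difference of -0.62 and short of the limit. In the control and with TIS108 MIR393b was at 4.48 and 5.26 FPKM, so that the PCIB column was its lowest. The same was true of MIR160b, at 2.14 and 3.23 FPKM.

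The abundant locus with the clearest difference was MIR171f, of a family that in Arabidopsis targets GRAS genes of the HAIRY MERISTEM group, which maintain meristems. It was at 52.4 FPKM in the control, 40.8 FPKM with nitrate, 49.6 FPKM with TIS108 and 15.8 FPKM with nitrate plus PCIB. The PCIB column stood alone here, with the other 3 columns between 40.8 and 52.4 FPKM, and the log2 difference from nitrate was -1.31. MIR164b, of a family that targets NAC genes, among them the Arabidopsis lateral root regulator NAC1, was the most abundant locus, at 106 FPKM with nitrate and 80.2 FPKM with PCIB. The control and TIS108 columns of MIR164b were at 111 and 114 FPKM, so PCIB again gave the lowest level, though short of the limit at -0.40. MIR164d was at 3.16 and 2.77 FPKM. The loci MIR166a and MIR166d, of a family acting on class III HD-ZIP genes of vascular and radial patterning, were at 3.05 and 11.3 FPKM with nitrate and at 1.90 and 8.61 FPKM with PCIB.

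Among the nutrient-linked loci, MIR408b had the widest difference of all. Its family targets genes of copper proteins such as plantacyanins and laccases. MIR408b was at 2.20 FPKM in the control, 5.56 FPKM with nitrate, 5.13 FPKM with TIS108 and 1.45 FPKM with nitrate plus PCIB, a log2 difference of -1.42. MIR398b, also copper-linked, was at 1.75 FPKM with nitrate alone and 1.97 FPKM with PCIB. MIR169c, whose family acts on genes of NF-YA transcription factors, was at 8.66 FPKM with nitrate alone and 5.58 FPKM with PCIB, and both lay above its control level of 2.65 FPKM. MIR169e of the same family lay the other way, at 2.14 and 3.83 FPKM. With a pseudocount of 5 MIR408b and MIR167g fell short of the limit, at -0.71 and -0.67, while MIR171f kept it under each pseudocount and scaling tried.

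Loci of the families MIR156, MIR159, MIR396 and MIR319 were mostly above their nitrate level, by small amounts. Of the 4 MIR156 loci, whose family targets SPL genes, 3 were above it. MIR156k was at 6.38 FPKM with nitrate alone and 8.84 FPKM with PCIB, and MIR156g, the exception, at 14.7 and 10.6 FPKM. All 3 MIR159 loci, whose family targets GAMYB genes, were above it, with log2 differences of 0.04 to 0.23, as were both MIR396 loci, whose family targets growth-regulating factor genes, at 0.18 and 0.23. MIR319b, whose family targets TCP genes, had the widest difference upward, from 2.17 to 4.11 FPKM, a log2 difference of 0.69. MIR2275d, of a family known from anthers, was at 2.84 and 2.85 FPKM. No member of these families met the limit, and with 1 value per group their spread is unknown.

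ENSRNA entries stood lower with PCIB as a group. Each of the 25 microRNA loci shares all its values with an ENSRNA entry, so these doubles were left out. Of the 204 remaining ENSRNA members 173 were below their nitrate level and 31 above, and the median log2 difference was -0.42 (quartiles -0.73 and -0.18), beside -0.05 over all members. By the limit 22 were lower (10.8%) and 1 higher (0.490%), where 0.861% and 3.7% of all members were. The 64 entries that the admission rule left out, below the minimum in both columns, gave a like value: 55 were below their nitrate level, with a median of -0.47. The difference was similar at every level, with medians of -0.42 at 5 to 10 FPKM, -0.40 at 10 to 20 FPKM, -0.52 at 20 to 50 FPKM and -0.35 at 50 FPKM or more. Median levels were 11.7 FPKM in the control, 13.2 FPKM with nitrate, 10.1 FPKM with TIS108 and 9.85 FPKM with nitrate plus PCIB, so that the TIS108 and PCIB columns were close. Across the scalings tried the median lay between -0.46 and -0.37 and 169 to 180 of the 204 were below nitrate. The 1 higher entry, ENSRNA049477077, named after its values were seen, was at 9.97 FPKM with nitrate alone and 21.8 FPKM with PCIB.

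**Figure D5:**
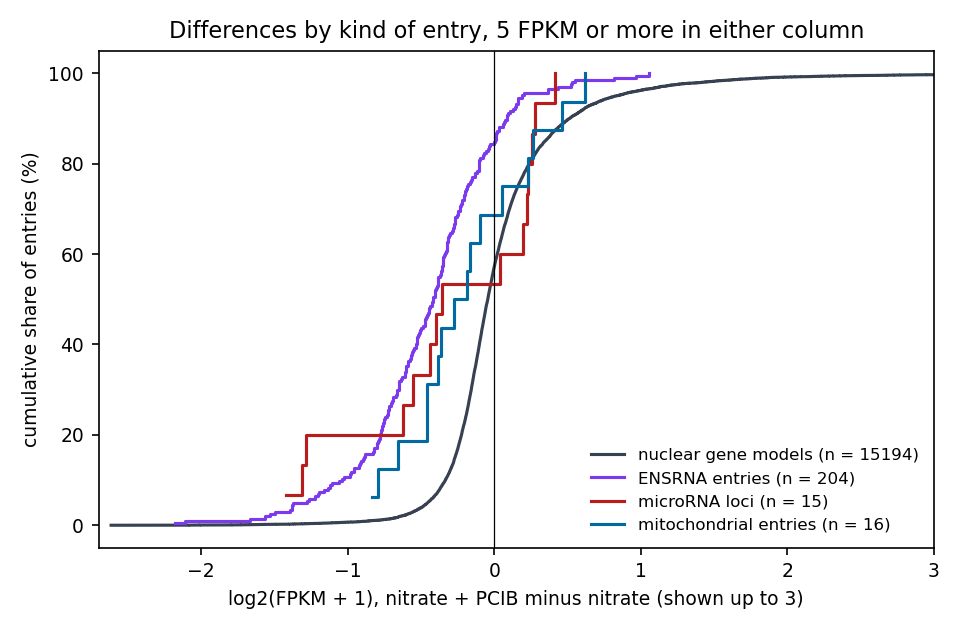
Cumulative share of entries (%) by their log2(FPKM + 1) difference between nitrate plus PCIB and nitrate, for nuclear gene models, ENSRNA entries, microRNA loci and mitochondrial entries among the members, entries of identical values counted once. The ENSRNA curve lies to the left of the nuclear one, with a median of -0.42 against -0.04, and the nuclear curve alone has a long right tail.

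Mitochondrial genes met the limit in 0 of 56 entries with distinct values. Of the 56, 40 were under 5 FPKM, where the pseudocount damps differences. Over all 56, 29 were above their nitrate level and 27 below, and the median log2 difference was 0.01. After quantile normalization the split was 23 and 33. The 5 NADH dehydrogenase genes (complex I) had a median of 0.25, with 4 above nitrate, and 3 above after quantile normalization. Among them nad6 was at 0.949 FPKM with nitrate alone and 1.96 FPKM with PCIB, and nad3 at 16.6 and 14.7 FPKM. The ATP synthase genes were split, with atp9, which encodes the membrane ring subunit, at 42.9 FPKM with nitrate and 24.3 FPKM with PCIB, and atp6 at 3.38 and 4.36 FPKM. Of the cytochrome c oxidase genes cox1 and cox2 were slightly below their nitrate level and cox3 slightly above it, with log2 differences of -0.08, -0.19 and 0.23.

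The mitochondrial entries with the widest differences were trnL-b, a tRNA gene, at 10.0 FPKM with nitrate and 5.19 FPKM with PCIB, and the open reading frame orf99-d, at 8.71 and 13.9 FPKM. The 3 ribosomal RNA genes were all below their nitrate level, but only rrn5 reached 5 FPKM, at 13.1 and 7.96 FPKM. The others were barely detected, rrn18 at 0.250 and 0.0866 FPKM and rrn26 at 0.211 and 0.150 FPKM. The 10 ribosomal protein genes had a median of 0.06, which was -0.05 after quantile normalization, among them rps12 at 60.6 and 56.6 FPKM. Mitochondrial transcripts are not stably polyadenylated, so these values reflect what a poly(A) selection retained. Among the 16 members 11 were below nitrate and 5 above, with a median log2 difference of -0.23, beside -0.05 over all members. Some of those below were admitted through the nitrate column alone, such as orf396 at 5.78 and 3.92 FPKM. Of those above, atp4 and trnR-a were admitted through the PCIB column alone.

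Plastid genes were low in both columns and showed no common direction. Of 15 entries 6 were above and 9 below their nitrate level, with a median log2 difference of -0.02, and 9 were above when columns were scaled by the median ratio. Only petA, of the cytochrome b6f complex, reached 5 FPKM, at 5.17 FPKM with nitrate and 5.03 FPKM with PCIB. The widest differences were those of rpl16, a ribosomal protein gene, at 1.07 and 0.519 FPKM, and of psbA, of photosystem II, at 0.609 and 1.04 FPKM. Next came matK, which encodes an intron maturase, at 0.560 and 0.346 FPKM, and psaB, of photosystem I, at 0.0999 and 0.222 FPKM.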

How the data were processed

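Poly(A) RNA of primary roots was sequenced as paired-end TruSeq libraries, per the labels' protocols. CASAVA 1.8, Trimmomatic 0.39, TopHat2 2.0.13 and the build B73 RefGen_v4 are named in the submitters' processing notes, with no role or order. The authors deposited 1 table of FPKM values with 1 column per group. For the program that computed them, the annotation release, any use of strand and the way replicates were combined, nothing is given in the sources used here. An FPKM value depends on the annotated length and on all other transcripts of its column.

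Differences were taken as log2(FPKM + 1) with Python 3.11.15, numpy 2.4.6 and pandas 2.3.3, and counted at 2-fold or more with 5 FPKM or more in the higher column. With 1 value per group, 0 tests across replicates were made. The counting step was checked on simulated data with known changes. These were put only into entries well above the minimum, so the check does not bear on low entries or on spread between replicates. Names came from a RefSeq table of another assembly (Zm-B73-REFERENCE-NAM-5.0), taken without its coordinates, which matched 97 identifiers and 0 nuclear gene models. By rule, the 2 nuclear identifiers with the widest difference per direction, named features past the limit and the 2 widest per set and direction are named. Other examples, the identifier numbers and the families were chosen after values were seen, and members and lists were chosen with earlier results of these data known. There were 0 columns of no group. Alternatives were other pseudocounts, minimum levels, scalings and sets of entries.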

Additional observations from a re-analysis of the deposited data

How the results depend on the processing

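The excess of higher over lower entries was kept under all 11 alternatives, with 78.9% to 85.3% of the counted entries higher. Counts depended on the limits. With a pseudocount of 5 there were 289 higher and 50 lower entries, and with a minimum of 10 FPKM 88 lower ones. With 5 FPKM or more in both columns, an alternative added after the data were seen, there were 271 and 69. The median control level of the higher entries, 8.97 FPKM, became 15.3 FPKM with a pseudocount of 5, 15.7 FPKM with the minimum of 10 FPKM, 21.6 FPKM with 5 FPKM in both columns and 14.3 FPKM with a mean of 5 FPKM over the 4 columns, also added later. That of the lower entries, 12.2 FPKM, became 18.5 FPKM with a pseudocount of 5, 7.59 FPKM with no minimum and 21.4 FPKM with 5 FPKM in both columns. The minimum changes which levels are admitted; for the pseudocount the cause was not tested. The median difference of TIS108 from the control over the higher entries, -0.30, was -0.19 with a pseudocount of 5. Rescaling every column to an equal sum gave -0.17, and 0.073 over the lower entries, because it raises the TIS108 column against the control for all members, from a median of 0.02 to 0.16. At a pseudocount of 5 MIR408b and MIR167g were under the limit, at -0.71 and -0.67. The other 15 entries named by rule stayed on their side of it under every pseudocount and scaling. No paired analysis was possible because the table has 1 value per group, and for the same reason no replicate could be left out. Depth is unknown, so no interval could be given.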
